A study of Mus musculus with 4 samples.

Results

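Of the 10 mouse genes that encode the pocket proteins RB, P107 and P130 (Rb1, Rbl1 and Rbl2) and the CDK inhibitors of the CIP/KIP family (Cdkn1a, Cdkn1b and Cdkn1c) and of the INK4 family (Cdkn2a, Cdkn2b, Cdkn2c and Cdkn2d), 4 carried an E2F1 peak at a promoter. These were Rb1, Cdkn1b, Cdkn2a and Cdkn2c, with 1 peak each, out of 4523 peaks in all. A peak was taken as a promoter peak where it overlapped the stretch from 1000 bp upstream to 500 bp downstream of any transcript start of the gene in the GENCODE M1 annotation of mm9. The window uses positions only, but which promoters have a peak was decided by the signal, since peaks were called in each sample. By the same window, 4090 of all peaks lay at a promoter of some gene. The values come from E2F1 ChIP-seq of mouse embryonic stem cells (ESCs), which sequences the DNA fragments that an anti-E2F1 antibody pulls down from fixed chromatin. The 4 samples were 2 biological replicates of serum ESCs, kept in fetal calf serum with LIF, and 2 of 2i ESCs, kept in serum-free Ndiff medium with LIF, the MEK inhibitor PD0325901 and the GSK3 inhibitor CHIR99021, each after more than 20 days in its medium. The name and genotype of the ESC line used for ChIP-seq are not given in the sources used here. E2F1 occupancy does not measure expression, so the cell type label was not checked against marker genes.

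Pocket proteins and CDK inhibitors hold back entry into S-phase. Cyclin D with CDK4 or CDK6, and then cyclin E with CDK2, phosphorylate the pocket proteins. Pocket proteins that lack these phosphates hold E2F factors on chromatin and keep E2F target genes off. INK4 proteins bind CDK4 and CDK6, and CIP/KIP proteins act mainly on cyclin-CDK2 complexes. Several genes of this circuit are themselves E2F targets in other cells, which gives the pathway feedback. The question put to these data is whether E2F1 sits at the promoters of its own regulators, and whether its occupancy there differs between serum and 2i.

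The peak at Rb1 lay on the start of the coding transcript Rb1-001 (minus strand of chromosome 14, 73725629), with its centre 17 bp downstream, and ran from 73725256 to 73725968. It covered the promoter, the 5'UTR, 119 bp of coding sequence and 74 bp of the first intron, and it also covered the start of Rb1-002 at 73725448. None of the 4 starts of shorter, non-coding Rb1 transcripts within the gene had a peak. The Cdkn1b peak (plus strand, chromosome 6, 134870086 to 134870565) was centred 94 bp upstream of the only start of the gene and reached into its 5'UTR. Cdkn2a has alternative promoters with separate first exons. Its peak (minus strand, chromosome 4, 88940467 to 88940922) was centred 137 bp upstream of the start at 88940557 and 171 bp upstream of the start at 88940523. This upstream promoter drives the first exon of p19ARF, a stabiliser of P53, whereas P16 is made from the downstream promoter. The start of Cdkn2a-001 at 88928096, downstream by 12598 bp from the centre of that peak, had none. The Cdkn2c peak (minus strand, chromosome 4, 109339240 to 109339654) lay entirely in the 5'UTR exon of Cdkn2c-001, with its centre 347 bp downstream of the start at 109339794, and so it was the only one of the 4 that did not cover a coding start. The start of the shorter transcript Cdkn2c-002 lay 1470 bp from the same peak centre, outside the window.

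The promoter stretches that carry the finding are given from 200 bp upstream to 29 bp downstream of the start, on the gene strand of mm9. An E2F motif was searched as TTTNNCGC, where each N stands for C or G, on both strands, and its matches are in capitals for Rb1, Cdkn2a and Rbl1. In Cdkn1b, which had no match, the capitals mark the CCAAT boxes within the stretch, and the last sequence is the Cdkn2a promoter without a peak, which had no match. For Cdkn2c, whose peak lies in a UTR, only 30 bp around a match to the shorter form TTNNCGC are shown.
Rb1, chr14:73725600-73725829, minus strand: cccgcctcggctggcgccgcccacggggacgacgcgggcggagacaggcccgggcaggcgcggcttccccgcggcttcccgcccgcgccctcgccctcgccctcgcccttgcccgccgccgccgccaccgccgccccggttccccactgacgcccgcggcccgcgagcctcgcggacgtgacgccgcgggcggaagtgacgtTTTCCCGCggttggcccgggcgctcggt
Upstream Cdkn2a promoter, chr4:88940528-88940757, minus strand: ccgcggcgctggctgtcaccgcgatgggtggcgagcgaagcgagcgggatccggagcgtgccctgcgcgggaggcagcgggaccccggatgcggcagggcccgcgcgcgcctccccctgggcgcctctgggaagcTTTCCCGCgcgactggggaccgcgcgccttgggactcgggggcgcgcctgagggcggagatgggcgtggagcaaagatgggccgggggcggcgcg
Cdkn1b, chr6:134870219-134870448, plus strand: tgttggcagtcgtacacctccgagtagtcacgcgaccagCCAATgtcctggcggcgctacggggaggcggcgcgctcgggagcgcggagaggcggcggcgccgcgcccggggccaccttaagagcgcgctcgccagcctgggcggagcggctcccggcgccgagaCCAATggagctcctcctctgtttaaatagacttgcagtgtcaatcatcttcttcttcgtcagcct
Cdkn2c, chr4:109339368-109339397, minus strand: ggggcccggccTTCCCGCtcccgcggcgcc
Rbl1, chr2:157030219-157030448, minus strand, no peak: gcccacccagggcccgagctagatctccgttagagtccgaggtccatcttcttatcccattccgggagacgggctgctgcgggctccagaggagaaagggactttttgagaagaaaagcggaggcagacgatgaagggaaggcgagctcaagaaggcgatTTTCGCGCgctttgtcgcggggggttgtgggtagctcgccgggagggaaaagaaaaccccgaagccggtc
Downstream Cdkn2a promoter, chr4:88928067-88928296, minus strand, no peak: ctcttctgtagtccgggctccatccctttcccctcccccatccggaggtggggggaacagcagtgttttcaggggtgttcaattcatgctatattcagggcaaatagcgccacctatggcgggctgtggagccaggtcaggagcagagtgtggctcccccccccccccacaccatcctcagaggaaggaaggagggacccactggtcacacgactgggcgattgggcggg

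The same word, TTTCCCGC, occurred at Rb1, 2 to 9 bp downstream of the start, and at the upstream Cdkn2a promoter, 65 to 58 bp upstream of the start at 88940557. These were 2 of the 4 peaks with TTTNNCGC within 200 bp of the peak centre, against 5.10% of the 4509 peaks placed on assembled chromosomes. With TTNNCGC, which every longer match contains, Cdkn2c joined them, making 3 of 4 against 29.3% of all peaks. The Cdkn1b peak matched neither form, but held CCAAT 3 times, once on the opposite strand 45 to 49 bp downstream of the start and so beyond the printed stretch, a word found in 19.8% of all peaks. The GC box GGGCGG was found in each of the 4 peaks and in 91.2% of all peaks. The CHR element TTTGAA, a site of DREAM and MuvB complexes, occurred at Cdkn2c alone among the 4 and in 3.95% of all peaks, and the E-box CACGTG in none of the 4 and in 9.94% of all peaks. GC content within 200 bp of the peak centre was 79.6% at Rb1, 73.6% at Cdkn2a, 66.8% at Cdkn2c and 62.8% at Cdkn1b, where the median peak had 75.6%. The Cdkn1b peak was thus GC-poor for this set, with only 3.64% of the peaks below it.

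**Figure D1:**
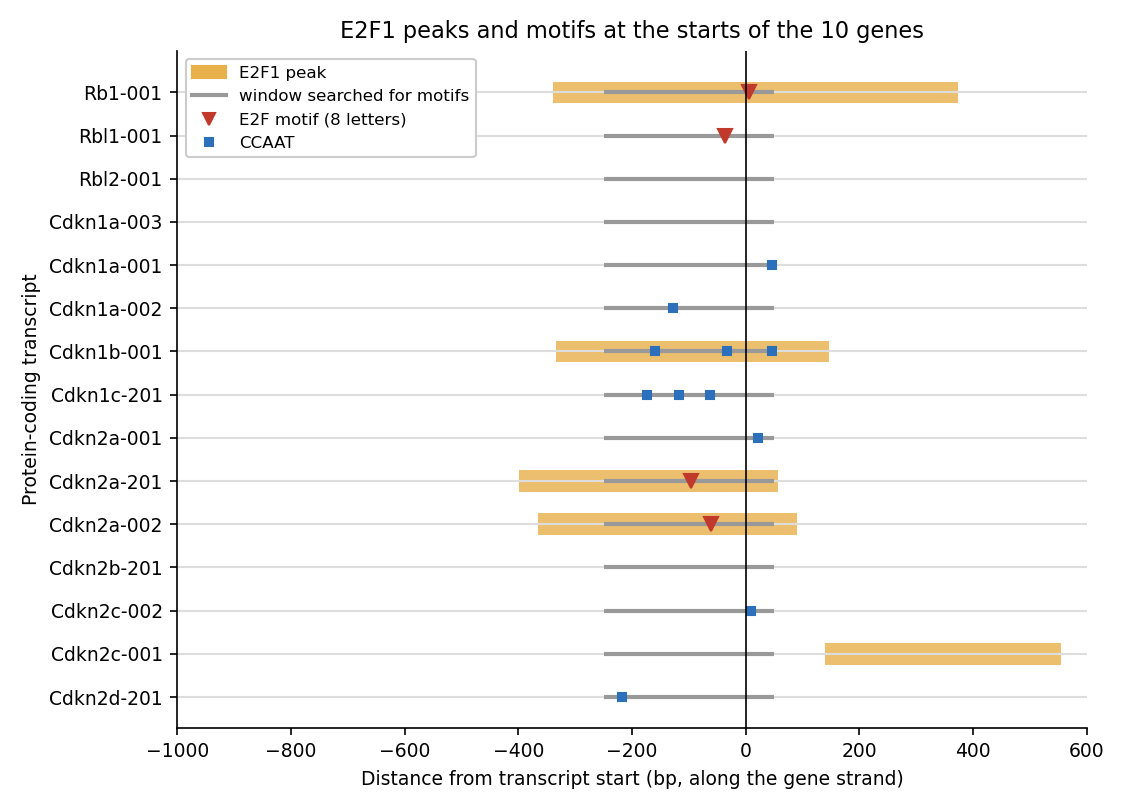
E2F1 peaks (orange bars), matches to TTTNNCGC (red triangles) and to CCAAT (blue squares) at the 15 protein-coding starts of the 10 genes, against distance from the start in bp along the gene strand, with motifs searched from 250 bp upstream to 50 bp downstream (dark grey lines). The bars at Rb1, Cdkn1b and the upstream Cdkn2a starts cross the start, the Cdkn2c bar begins 140 bp downstream of it, and the Rbl1 row holds a motif and no peak.

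The other 6 genes had no promoter peak. These were Rbl1 and Rbl2, which encode P107 and P130, Cdkn1a (P21), Cdkn1c (P57), Cdkn2b (P15) and Cdkn2d (P19INK4D). The peak nearest to a start of Cdkn2b was the Cdkn2a peak itself, at 16247 bp. For Cdkn2d it was a peak at the Keap1 promoter at 52302 bp, for Cdkn1a one at the Srsf3 promoter at 58444 bp and for Cdkn1c one at the Nap1l4 promoter at 87926 bp. For Rbl1 and Rbl2 it was 113208 and 161693 bp away. A gene without a peak has no value in these data, because reads were counted only over peaks found in both replicates of a condition, so weak occupancy there is not detectable rather than absent. From 250 bp upstream to 50 bp downstream of a coding start, TTTNNCGC occurred in 2.78% of the 45975 protein-coding starts in the annotation. Among the starts of these 6 genes it occurred only at Rbl1, as TTTCGCGC, 40 to 33 bp upstream of the start. GC boxes were also found in promoters without a peak, as often as 7 times at Cdkn1c.

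E2F1 occupancy at the upstream Cdkn2a promoter was higher in 2i than in serum ESCs, and this was the only called difference among the 4 peaks. Values are the deposited normalized counts, that is, reads over the peak divided by the size factor of the sample. The test was limma, fitted to log2(normalized count + 1) of all 4523 peaks, and a peak was called where the log2 fold change lay beyond 1 or -1 and the unadjusted p was under 0.05. Fold changes are on that scale, serum minus 2i, which understates changes of weak peaks. The call was made for 1 of the 4 peaks, where it was made for 10.3% of all peaks in either direction and for 5.48% with the higher value in 2i. After Benjamini-Hochberg adjustment over all peaks, 1 of 4 was called against 1.46% of all peaks. An unadjusted p under 0.05 at any fold change was reached by 3 of 4, against 17.8%. The replicate values of serum and 2i did not overlap at 3 of 4, against 49.3%. The 4 log2 fold changes had a median of -0.49, where the median of all peaks was -0.03. With so few peaks, the shares are a description.

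At Cdkn2a, the normalized count was 17.4 and 20.0 in serum replicates 1 and 2, and 75.6 and 67.8 in 2i replicates 1 and 2. Both 2i values were thus above both serum values, and the replicates of each condition lay close together. Means were 18.7 ± 1.83 for serum and 71.7 ± 5.50 for 2i ESCs (SD, n = 2 each), a level 3.83 times higher in 2i. Its log2 fold change was -1.88 (standard error 0.38, 95% interval -2.72 to -1.05, adjusted p = 0.0378 from limma). It was the 35th lowest fold change and the 49th smallest p of the 4523 peaks. The reads behind the 4 values were 10, 21, 135 and 65 in the same order, so that counting noise alone gives the fold change a standard error of 0.30. A peak needed to be found in only 1 of the conditions, so a peak as weak in serum as this one may be in the set through its 2i signal. Leaving out any 1 of the 4 samples gave fold changes from -1.98 to -1.79, but the adjusted p then ran from 0.0693 to 0.221 (limma), so the call after adjustment needed all 4 samples. It was also lost when the variance was not allowed to follow the mean level, at an adjusted p of 0.0623 (limma).

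Cdkn2c encodes P18, an INK4 inhibitor of CDK4 and CDK6. Its peak had 20.91 and 20.97 in the serum replicates and 44.2 and 37.6 in the 2i replicates, so it too had both 2i values above both serum values. The log2 fold change was -0.93 (standard error 0.41, 95% interval -1.83 to -0.02, adjusted p = 0.266 from limma), short of the threshold of 1. Its unadjusted p of 0.0453 became 0.0525 with replicate number as a block and 0.0812 after cyclic loess normalization, and ran from 0.0731 to 0.204 when any 1 of the 4 samples was left out (limma). With the samples rescaled to the same total it was -1.02 and called. The values rest on 12, 22, 79 and 36 reads in serum replicates 1 and 2 and 2i replicates 1 and 2. Being this weak in serum, the Cdkn2c peak, like that at Cdkn2a, may be in the set through its 2i signal.

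Rb1 encodes RB, the pocket protein best known for binding the activating E2Fs. Its peak went the other way, with 172 and 176 in the serum replicates and 77.3 and 101 in the 2i replicates, both serum values being above both 2i values. Means were 174 ± 2.73 for serum and 89.2 ± 16.9 for 2i ESCs (SD, n = 2 each). This gave a log2 fold change of 0.97 (standard error 0.26, 95% interval 0.40 to 1.55, adjusted p = 0.0963 from limma), just short of the threshold of 1, so that the peak was not called. Without 2i replicate 2 it was 1.16 and called, and without 2i replicate 1 it was 0.78. With replicate number as a block its adjusted p was 0.0229 (limma).

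Cdkn1b encodes P27, a CIP/KIP inhibitor of cyclin-CDK2. Its normalized count was 62.7 and 91.5 in the serum replicates and 87.3 and 70.9 in the 2i replicates. The 2i values lay between the serum values, and the means of 77.1 ± 20.4 and 79.1 ± 11.6 (SD, n = 2 each) differed by less than the spread between replicates. The log2 fold change was -0.05 with a 95% interval from -0.73 to 0.63 (adjusted p = 0.944, limma), an interval that spans both directions. The sign reversed without serum replicate 1, to 0.21, and without 2i replicate 1, to 0.09. Peaks on chromosome 6 as a whole were shifted towards 2i, with a median log2 fold change of -0.38 over 238 peaks, the lowest of the 20 chromosomes with at least 50 peaks, whose medians reached up to 0.13. Relative to that median, Cdkn1b was at 0.33. Chromosome 4, with Cdkn2a and Cdkn2c, had a median of -0.04, and chromosome 14, with Rb1, one of 0.11. The cause of the shift on chromosome 6 was not tested.

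**Figure D2:**
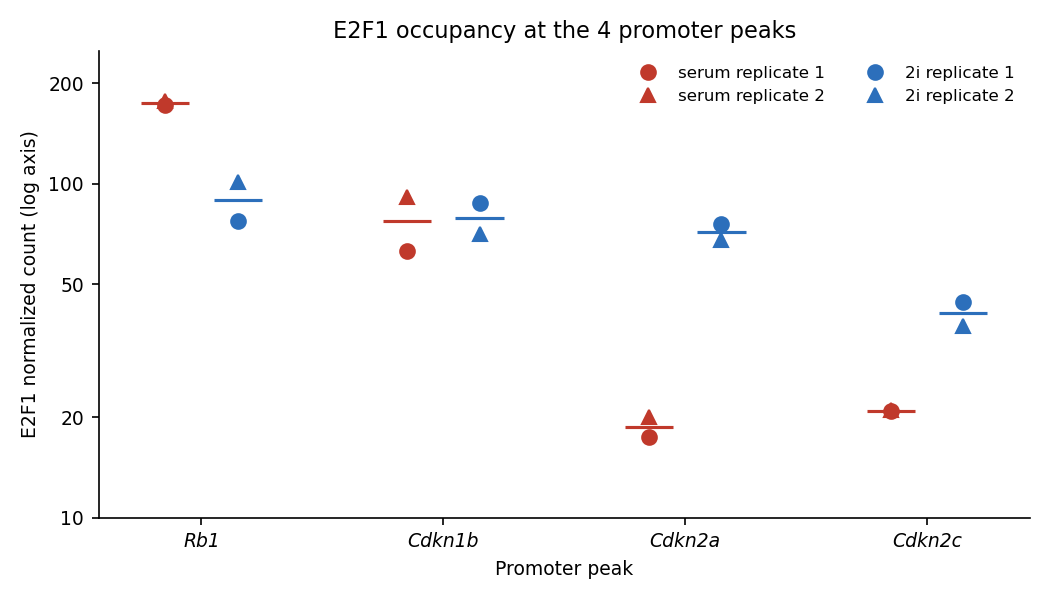
Normalized count of each sample (y axis, log scale) at the 4 promoter peaks, with serum in red, 2i in blue, circles for replicate 1, triangles for replicate 2 and a bar at the mean of each condition. At Rb1 both serum points lie above the 2i points, at Cdkn2a and Cdkn2c both lie below, and at Cdkn1b the conditions overlap.

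**Figure D3:**
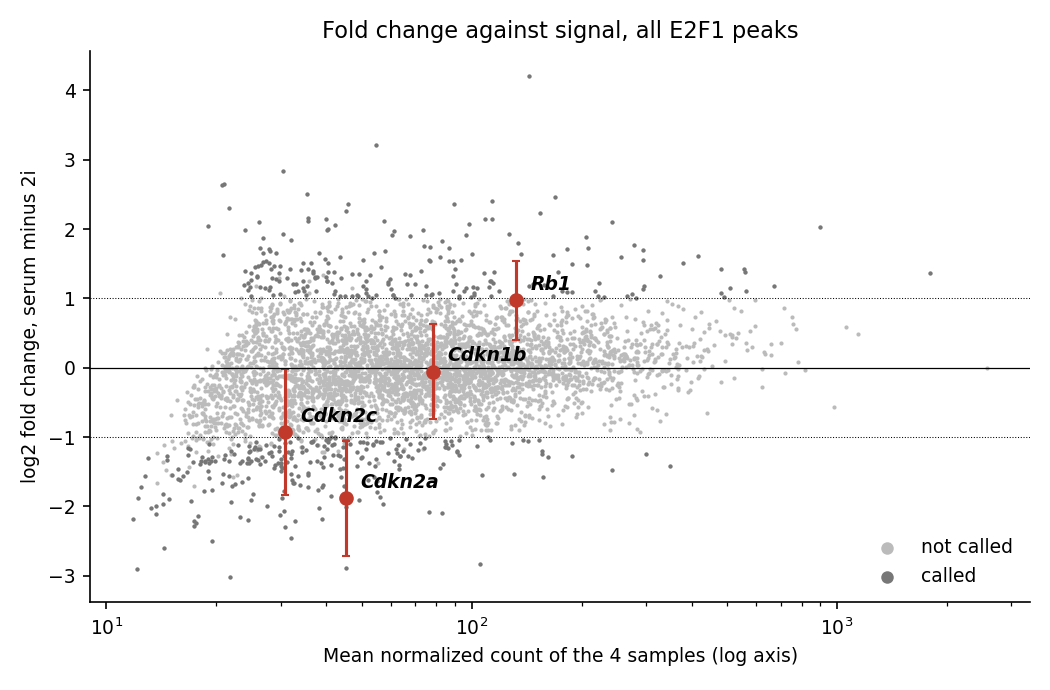
Log2 fold change, serum minus 2i, against the mean normalized count of the 4 samples (log axis) for the 4523 peaks, with called peaks in dark grey and the 4 promoter peaks in red with their 95% limma intervals. Dotted lines mark fold changes of 1 and -1, and of the 4 only Cdkn2a lies past one.

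Because each peak has its own length, levels were compared between genes per kb of peak. In serum, the mean was 245 normalized counts per kb at Rb1, 161 at Cdkn1b, 50.6 at Cdkn2c and 41.1 at Cdkn2a, where the median over all peaks was 125.5. No neighbours in this order overlapped in their replicate values. In serum replicates 1 and 2, however, Cdkn2c rested on 12 and 22 reads and Cdkn2a on 10 and 21. The order of these neighbours is therefore not settled. In 2i, the order was Cdkn1b with 165, Cdkn2a with 158, Rb1 with 125 and Cdkn2c with 98.8 normalized counts per kb, and the median over all peaks was 125.4. The replicates of Cdkn1b and Cdkn2a overlapped in 2i, so these neighbours did not differ beyond their spread. Cdkn2a exceeded 4.2% of all peaks in serum and 65.2% in 2i on this scale. Rb1 exceeded 84.1% in serum and 49.9% in 2i.

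The ratio of a pair of peaks within 1 sample does not depend on how the samples are scaled. The Rb1 peak had 9.90 and 8.81 times the normalized count of the Cdkn2a peak in serum replicates 1 and 2, and 1.02 and 1.49 times in 2i replicates 1 and 2. The mean log2 ratio differed by 2.92 between serum and 2i. The Rb1 to Cdkn2c ratio was 8.25 and 8.41 in serum and 1.75 and 2.69 in 2i. The Cdkn2a to Cdkn2c ratio was 0.833 and 0.955 in serum and 1.71 and 1.81 in 2i. The 6 pairs are built from the same 4 peaks and are not separate observations. Each gave an exact two-sided permutation p of 0.333, the smallest that 2 samples against 2 allow, so these ratios are a description.

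Few other peaks lay near the 4 promoters. Within 1 Mb, Rb1 had 4 other peaks, Cdkn1b 3, Cdkn2a 1 and Cdkn2c 6, and none of these was called, where 10.3% of all peaks were. Numbers this small are a description. Around Rb1 their log2 fold changes ran from -0.40 to 0.30. The only other peak within 1 Mb of Cdkn2a, at a distance of 356.4 kb and at no promoter, had -0.14. Around Cdkn2c they ran from -0.62 to 0.07, and the nearest, at the Faf1 promoter 10 kb away, had -0.26. The 3 peaks around Cdkn1b all had negative values, from -0.64 to -0.13.

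**Figure D4:**
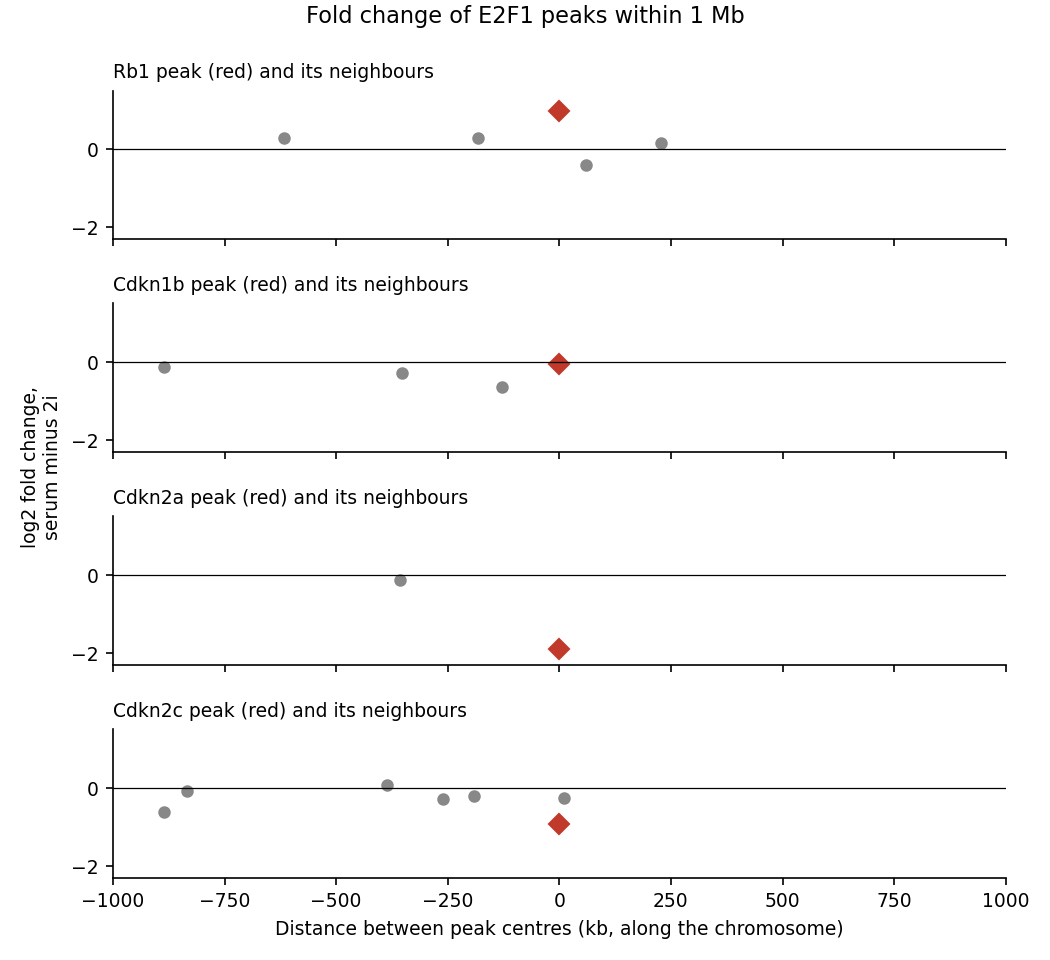
Log2 fold change, serum minus 2i, of each of the 4 promoter peaks (red) and of all other E2F1 peaks within 1 Mb (grey), against the distance between peak centres in kb along the chromosome. The red points at Rb1 and Cdkn2c lie outside the range of their grey neighbours, and the one at Cdkn1b lies closer to 0 than its neighbours. At Cdkn2a the red point lies below its only neighbour, which gives no range.

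The wider circuit around these genes was read from 6 lists with 69 genes, of which 35 had promoter peaks, 39 peaks in all. Of these 39 peaks, 2 were called, both higher in serum, against 10.3% of all peaks, and their median log2 fold change was 0.16. Among E2F and DP genes, 9 of 10 had a peak, each with 1. All 9 had positive fold changes, from 0.04 to 1.31 with a median of 0.31, against 47.8% of all peaks with a positive value, but 8 of 9 were positive after rescaling to the same total and 8 of 9 after cyclic loess. The peak at E2f2, an activating E2F, was called (61.0 and 53.4 in serum and 25.2 and 19.8 in 2i, log2 fold change 1.31, adjusted p = 0.121 from limma). Among G1 cyclins, their kinases and activators, 4 of 13 genes had peaks, and the 5 peaks had fold changes from 0.15 to 0.62 with none called. Of the MuvB complex and B-Myb, 3 of 6 genes had a peak, with a median of -0.02, and of the genes for P27 and P21 turnover 4 of 12, with a median of -0.08 that became 0.10 after cyclic loess. None of these was called. Pocket protein cofactors, such as the histone deacetylases, had peaks at 5 of 13 genes, 3 of the 6 peaks with positive and 3 with negative fold changes (2 and 4 after rescaling to the same total) and none called. Of 15 regulators of the Cdkn2a locus, 10 had peaks, 12 in all, 6 with positive and 6 with negative fold changes, from -0.90 to 1.03 with a median of -0.09. After rescaling to the same total, and also after cyclic loess, 4 were positive and 8 negative. Of the 12, only the peak at Cbx7, a Polycomb protein that represses this locus in other cells, was called (165.5 and 138 in serum and 77.3 and 69.9 in 2i, log2 fold change 1.03, adjusted p = 0.0876 from limma).

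The promoter peaks with the pattern most like that of Cdkn2a over the 4 samples were at Pde8a, at St3gal4 with 4930581F22Rik, and at Nup54. Likeness was the sum of squared differences of log2(normalized count + 1), each peak centred on its own mean, and came to 0.0203, 0.0358 and 0.0895. The Pde8a peak had 20.9 and 24.8 in serum and 91.3 and 91.8 in 2i. Values were lower at St3gal4, with 12.2 and 14.3 in serum and 54.3 and 41.7 in 2i. They were lowest at Nup54, with only 3.485 and 3.813 in serum and 21.3 and 18.8 in 2i, so that its likeness rests on very few serum reads. For Cdkn1b the most alike were Mios, Nup205 and Arhgdia, at 0.00474, 0.00506 and 0.00517, and the first 2 of them also lie on chromosome 6.

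**Figure D5:**
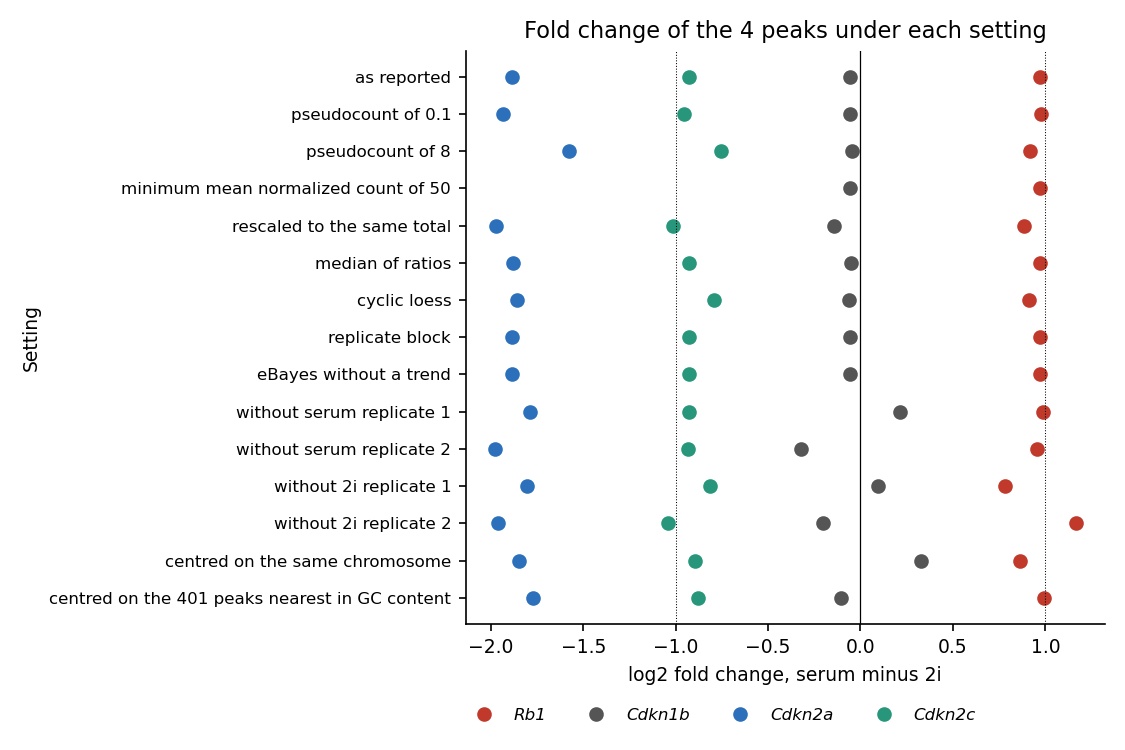
Log2 fold change, serum minus 2i, of the 4 promoter peaks (x axis) under each setting of the processing (y axis). Cdkn2a stays between -1.98 and -1.58, Cdkn2c between -1.04 and -0.75 and Rb1 between 0.78 and 1.16, while Cdkn1b lies on both sides of 0, and Cdkn2a and Cdkn2c have no point at the minimum of 50, which left them out.

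Depth differed between the samples. Reads in peaks ranged from 248878 in serum replicate 1 to 710519 in 2i replicate 1, and the median peak held 35 to 111 reads. A normalized count of 1.74 was worth 1 read in serum replicate 1 and one of 0.560 in 2i replicate 1, so that low values were the least precise in serum replicate 1.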

How the data were processed

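E2F1 ChIP-seq was analysed in 2 serum and 2 2i samples, grouped by their labels. According to the methods and the submitters' processing notes, the authors aligned reads to mm9 with BWA, removed duplicates and blacklisted regions, called peaks per sample with MACS2, intersected replicates, merged serum and 2i peaks, counted reads with bedtools and called differential peaks with DESeq2. Tool versions are not given in the sources used here. The deposited signal is 1 normalized count per peak and sample. Of the 18092 values, 99.95% were within 0.02 of a whole multiple of the step that 1 read is worth, and the remaining 9, all in serum and none at the 4 promoter peaks, were exactly 2. Reads are given only to show depth and, at Cdkn2a, the size of the counting noise, and no count model was fitted.

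Serum and 2i were compared with limma 3.58.1 (R 4.3.3) on log2(normalized count + 1), in 1 fit of the 4 samples without a block, with the eBayes variance prior following the mean level. The script was tested on simulated data. Peaks were placed on NCBIM37 (mm9) with GENCODE M1 in Python 3.11.15. Peak starts were read as counted from 1, which is not stated, so peak edges may be off by 1 bp. The sequence was read from the same genome, and motif shares omit 14 peaks on unplaced contigs.

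The genes, lists, thresholds and alternatives were chosen with earlier results of these data known. All 4 promoter peaks and all genes without one are named, from each list the called peaks, and the 3 peaks most alike to the promoter peaks with the largest and the smallest fold change.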

Additional observations from a re-analysis of the deposited data

How the results depend on the processing

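Of the 4 promoter peaks, 1 was called. With a minimum mean normalized count of 50 it was 0, because Cdkn2a and Cdkn2c were then not tested. It was 2 after rescaling to the same total, which lowered the median of all peaks by 0.09 and brought Cdkn2c to -1.02, and 1 to 2 with 1 replicate left out, Rb1 being called without 2i replicate 2. After adjustment, 1 was called, against 0 with that minimum, 0 without a trend of the variance, and 0 to 0 in the leave-one-out fits, where the lone sample of a condition is assumed to vary like the others. Over all peaks, 466 were called (218 higher in serum, 248 in 2i), 188 of 2731 with the minimum of 50 (121 and 67), 178 and 313 after rescaling to the same total, 232 and 166 after cyclic loess, and 378 to 674 with 1 replicate left out. After adjustment 66 became 271 with the replicate block, 0 without a trend (limma, 769 at an unadjusted p under 0.05), and 0 to 33 with 1 replicate left out. The replicate block called the same 1 of the 4 peaks and 504 peaks in all. Deviations of same-numbered samples had a correlation of 0.048 across peaks, so the numbers were not taken as pairs.

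The fold change of Cdkn1b reversed to 0.21 without serum replicate 1, to 0.09 without 2i replicate 1 and to 0.33 when centred on its chromosome. Leave-one-out ranges were 0.78 to 1.16 for Rb1, -0.32 to 0.21 for Cdkn1b, -1.98 to -1.79 for Cdkn2a and -1.04 to -0.81 for Cdkn2c. The other settings, with pseudocounts of 0.1 and 8, kept the sign of each peak. Centring on the chromosome or on the peaks nearest in GC content was chosen after seeing the data. Other windows left 4 genes with a peak, and the motif was found in 2 of 4 peaks over the whole peak and in 3 in its shorter form. The planned count tests were not run: in 3 of the 4 samples no value equals 1 read, so the reads behind the normalized counts, inferred from the spacing of low values, did not meet the criterion set for testing them. Where not stated, the cause of a change was not tested.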
